A study of Homo sapiens with 4 samples.

Results

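Group 0 of this lineage tracing experiment was the set of cells that the authors' final allele table lists under group number 0, outside Clones 1 to 11. It held 121 of the 34557 cells in the table, or 0.35%, and 13 of its 117 integration barcodes (intBCs). Members were taken by the group number alone, which the authors had set from the intBCs a cell carried, so the intBCs of these cells describe that rule, whereas their alleles played no part in it. The methods sorted cells by the intBC that most of them listed, round by round, and gathered the last cells in a leftover clone; that group 0 is this clone is not stated in the sources used here. The cells were A549, a human lung adenocarcinoma line engineered with Cas9, an array of target sites and 3 guide RNAs, and they were profiled by single-cell RNA sequencing of the target site transcripts in 4 libraries (plates 00, 01, 10 and 11), 1 for each final plate. All plates carried the same recorder, and the labels give no treatment that set them apart beyond how the pool had been split, plates 00 and 01 being read as daughters of one plate of the first split and plates 10 and 11 as daughters of the other, which the sources used here do not state. There are no replicate libraries of a plate.

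In this recorder each target site is a transcribed cassette with a random barcode that names its integration and 3 cut sites at which Cas9 leaves a small insertion or deletion (indel) when the break is repaired. An indel is passed to all descendants and usually blocks further cutting at that site, so cells that share an indel at the same intBC may share an ancestor that acquired it, although common indels also arise repeatedly. Cassettes enter a founder cell at random genomic positions, so a clone is recognised by its set of intBCs, and their positions in the genome were not analysed here.

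The 13 intBCs of group 0 are printed whole, 14 bases each and in lower case throughout, because they are what set these cells apart from the clones. They are named here by the company they kept in a cell: S for those found with every other kind, A and B for those that rarely met one another, and U for one listed at very few transcripts.
S1: tcttccctaagttg
S2: tttttcttgatgta
S3: gaaccacgtactgc
S4: gtaaccgcgcattc
U1: gtccctaatatttt
A1: atttgcttcatttt
A2: gtgcaccgtttgaa
A3: tgttcagtgcgtcc
B1: tcattttcttttct
B2: cttatccagacgtg
B3: cactcgcgccaatc
B4: acacggcaggatac
B5: caactcaaatccgc

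None of the 13 intBCs was listed in a cell of Clones 1 to 11, which carried the other 104. The authors had removed intBCs listed in under 10% of the cells of a group, so an intBC carried by a few of these cells, whether of a clone or not, would not be seen here. Each differed from the nearest clone intBC at 5 to 7 bases (median 6), beside 5 to 8 (median 6) between a clone intBC and the nearest intBC of another clone. The group 0 intBCs were thus about as far from the clones' barcodes as the clones' barcodes were from each other.

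A group 0 cell listed 3 to 10 of the 13 intBCs, with a median of 6, and 13 to 274 unique molecular identifiers (UMIs, 1 for each captured transcript), with a median of 54. Whole libraries had medians of 70 to 81 UMIs per cell over 8031 to 9337 cells and 679952 to 812480 UMIs, and group 0 contributed 702 alleles (an allele is the 3 cut site calls of 1 intBC in 1 cell) with 8179 UMIs. Of those alleles, 57 (8.12%) rested on 1 UMI and 161 (22.9%) on fewer than 5, beside 25.2% under 5 in the clones. Among cell barcodes, 621 of 33935 occurred in more than 1 library. They included those of 4 group 0 cells in plates 10 and 11, whose namesakes in the other libraries all belonged to clones and so listed none of the 13 intBCs.

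S1 was the intBC listed most often, in 113 of 121 cells, followed by S2 in 100, S3 in 98 and S4 in 97. A1 was listed in 74 cells and A2 in 73, and the B intBCs in 29 (B1), 24 (B2), 23 (B3), 20 (B4) and 19 (B5). U1 was listed in 18 cells and A3 in 14. Where listed, B4 had the highest median, 33.5 UMIs (1 to 121), and U1 the lowest, 1 UMI (1 to 2), while the others had medians of 6 to 14. U1 calls therefore rest on 20 UMIs in all.

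The A and B intBCs were almost never found in the same cell, but the kinds were named from these same joint listings. The counts of A with B and among B1 to B5 therefore describe the naming rule and are no separate evidence. The 3 A and 5 B intBCs form 15 pairs, of which 8 never occurred together and the remaining 7 together in 1 to 4 cells. Summed over the 15 pairs, 12 joint occurrences were seen where 153 would follow if intBCs were listed independently of each other. The 10 pairs among B1 to B5 summed to 185 joint occurrences beside 43.5, and each pair shared 13 to 23 cells. By contrast the 6 pairs among S1 to S4 shared 79 to 95 cells, 523 in sum beside 515, and the 20 pairs of an S with a B intBC summed to 331 beside 388. The S intBCs were thus listed about as often with either kind, apart from S2, which met B1 to B5 at a mean of 0.46 times the independent rate.

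**Figure D1:**
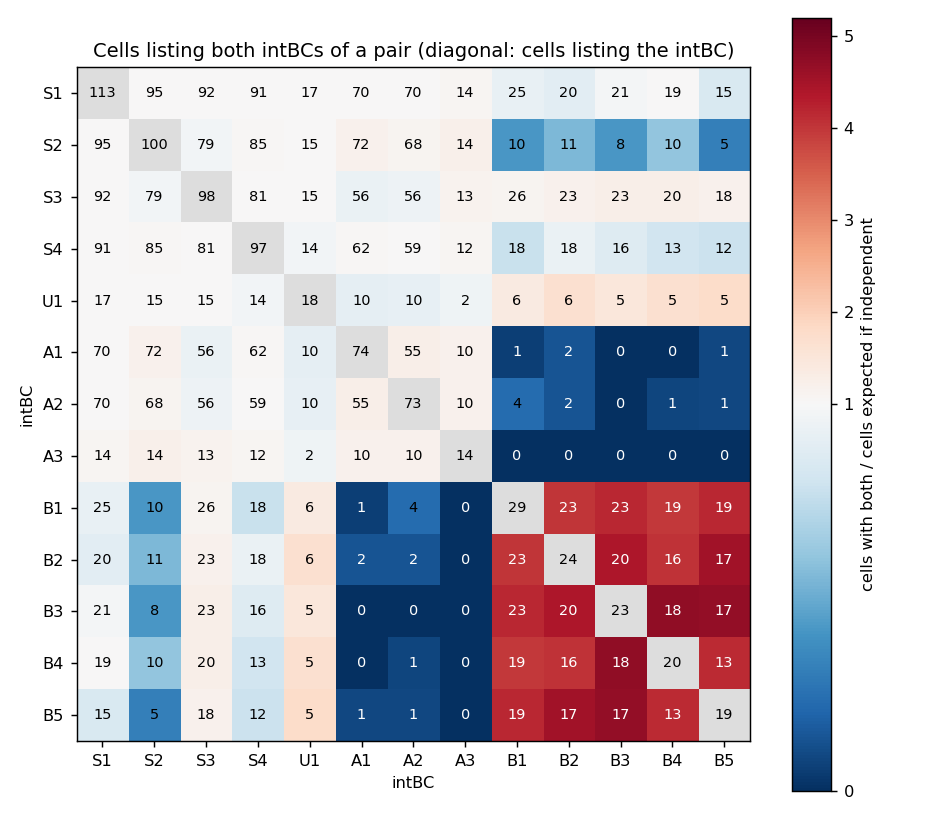
Number of group 0 cells listing both intBCs of each pair (printed in the squares, with the cells listing each intBC on the diagonal) over the 121 cells, coloured by the ratio to the number that independent listing would give (white is 1, blue lower, red higher). The A by B squares hold 0 to 4 cells, whereas the squares among B1 to B5 hold 13 to 23.

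Grouping the intBCs by the Jaccard index of the cells listing them did not by itself separate these kinds. At an index of 0.25 or more, S1 to S4, A1, A2 and B1 to B5 joined into 1 module of 11, with U1 and A3 left as modules of a single intBC. At 0.1 all 13 formed 1 module. At 0.5 the large module parted into S1 to S4 with A1 and A2 on one side and B1 to B5 on the other. The authors' rule, in which the most widespread intBC takes every cell that lists it and the rest are sorted in the same way, ended after 3 rounds that took 113, 6 and 2 cells, seeded by S1, S3 and A1. At the 0.25 index, 30 cells (24.8%) listed intBCs of more than 1 module, all of them through U1 or A3: 19 in plate 10, 10 in plate 11 and 1 in plate 01.

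By the exclusive intBCs, 87 cells listed A but no B intBC, 25 listed B but no A, 6 listed both and 3 listed neither. The alleles that these cells carried at S1 to S4 and U1, which played no part in that division, were then compared. The A-only cells carried 62 alleles at these 5 intBCs and the B-only cells 17, and none of the 79 was found on both sides. At each of the 5 intBCs, all listing A-only cells shared an indel that no B-only cell carried there. The 79 alleles are therefore not separate comparisons, and no expected overlap was computed. At S3, 67 A-only cells listed 30 alleles and 25 B-only cells a single one. At S2 the reverse held, with a single allele in 85 A-only cells and 6 alleles in 9 B-only cells. The call of an intBC as exclusive is a matter of degree, since A2 met the B intBCs at 0.11 times the independent rate. With a cutoff of 0.1 in place of 0.25, A2 counted as a shared intBC, the division became 76, 29, 2 and 14 cells, and 3 of 101 alleles were found on both sides. On the B side those 3 were carried by 1 cell of plate 10, which listed A2 but no other A intBC, and B4 at 1 UMI.

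Single indels did occur on both sides: 111:1I at cut site 1 of S4, fixed among A-only cells, was also carried by 2 of 18 B-only cells, beside other indels at the remaining sites, and 219:2D at cut site 3 of U1 was carried by cells of both. Each side had a set of fixed indels. Among A-only cells 13 characters (a character is 1 cut site of 1 intBC) carried the same indel in every listing cell, and among B-only cells 14 did, counting characters listed in at least 10 cells. Matched against these indels, the 3 cells with neither kind of intBC carried 25 of 25 listed calls of the A side and 0 of 21 of the B side. Of the 6 cells with both kinds, 1 in plate 10 and 1 in plate 11 carried 17 of 17 A-side calls and 2 of 14 B-side calls between them. Each listed a single B intBC at 1 UMI, B4 in one and B2 in the other, and its fixed set B indel (111:3D at B4, 111:1D at B2) made up the B-side match. The other 4 cells, all from plates 00 and 01, matched 0 of 16 A-side and 0 of 22 B-side calls. Sorted by their fixed indels, the 121 cells thus fell into set A with 92 cells, set B with 25 and 4 others.

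**Figure D2:**
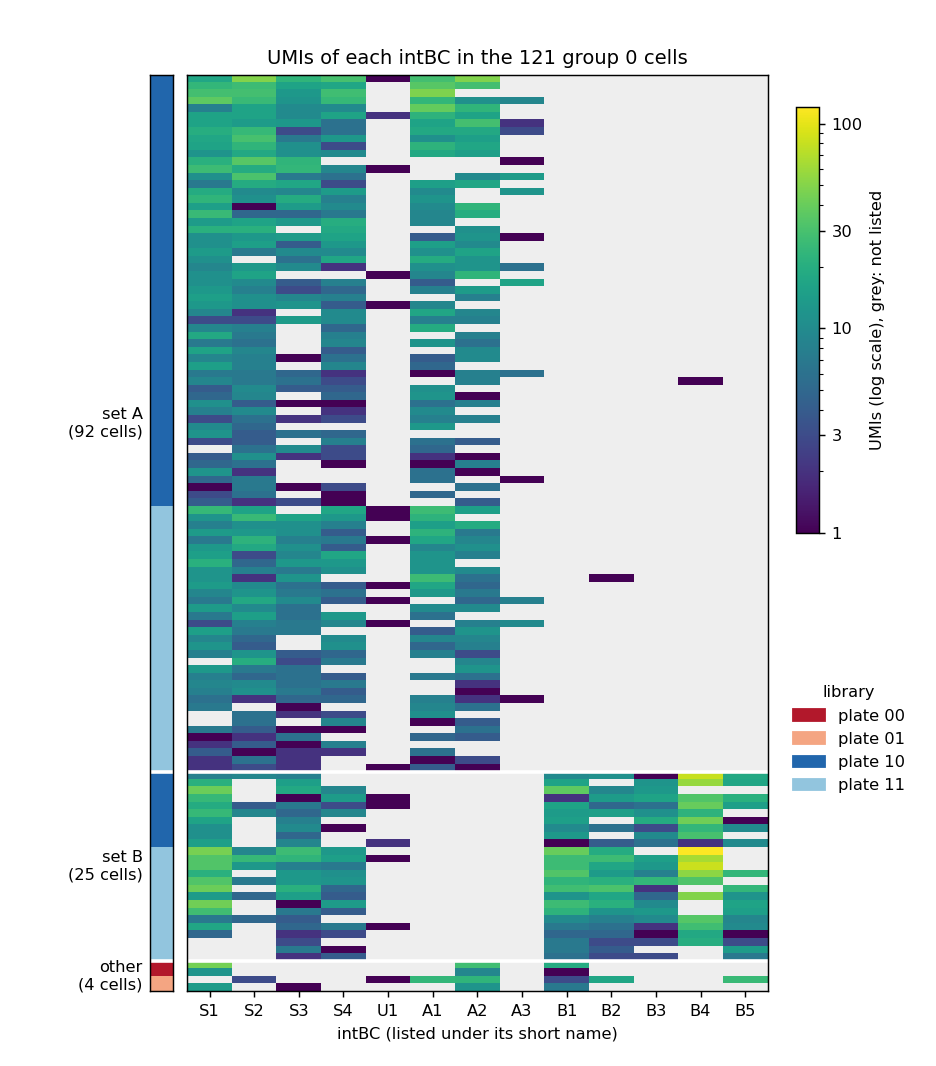
UMIs (colour, log scale) of each of the 13 intBCs (columns) in each of the 121 group 0 cells (rows), with intBCs not listed for a cell in grey and the library of each cell in the strip at left. Rows are ordered by set, library and total UMIs. Set A (92 cells) and set B (25 cells) share S1 to S4 and U1 but occupy different columns among the A and B intBCs. The exceptions are 1 cell of set A at B2 and 1 at B4. The 4 other cells come from plates 00 and 01.

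The sequence across the repaired cut shows how far the sets differed at the intBCs they had in common. Each line gives 5 bases before the indel in lower case and, in capitals, the 5 bases that follow a deletion or the inserted base. Indels are written as their position along the target site, their size in bases and D for deletion or I for insertion, so that 167:54D is a deletion of 54 bases at position 167. Insertions of 1 size at 1 position count as the same indel here, and so do deletions, whatever the inserted or flanking bases.
S1 in set A, 167:54D: gatatCGGAG
S1 in set B, 113:62D: ccgaaCATCC
S2 in set A, 113:108D: ccgaaCGGAG
S3 in set A, 112:27D: gccgaACGCT
S3 in set B, 113:54D: ccgaaCTCTG
S3 in set B, 205:19D: gtagcAGGAC
S4 in set A, 111:1I: cgccgAaaaaa
S4 in set A, 219:2D: taattCGGAG
S4 in set B, 167:54D: gatatCGGAG
Deletions of different length ended at the same base: of the 17 fixed deletions of both sets, counted once per intBC, 6 resumed at position 221 with the bases cggag and 2 at position 167 with ctctg.

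Set A had 10 fixed indels over its 13 fixed characters, 8 deletions and 2 insertions. At S2, a deletion of 108 bases that takes in all 3 cut sites (113:108D) was carried by 90 of 90 cells, which left that target site with 1 allele. At S1, 167:54D, which removes cut sites 2 and 3, was carried by 88 of 88 cells. S4 carried 111:1I at cut site 1 and 219:2D at cut site 3 in 79 of 79 cells, A1 carried 111:2D in 73 of 73, S3 112:27D in 72 of 72 and A2 113:1I in 69 of 69, each at cut site 1. A3 carried 113:41D and 220:1D at its outer sites in 14 of 14 cells and was uncut at cut site 2 in all of them. U1 carried 111:1D in 12 of 12 cells.

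Set B had 9 fixed indels, all deletions, over 14 characters. S3 carried 113:54D across cut sites 1 and 2 with 205:19D at cut site 3 in 25 of 25 cells, and B1 carried 99:68D across cut sites 1 and 2 with 206:16D at cut site 3 in 25 of 25, so both target sites had a single allele. B3 carried 167:54D in 23 of 23 cells, S1 113:62D in 22 of 22, B2 111:1D in 22 of 22, B4 111:3D in 19 of 19 and S4 167:54D in 18 of 18. S2 was listed in 9 of the 25 cells of set B, beside 90 of 92 in set A, and carried 111:1I at cut site 1 and 220:1I at cut site 3 in 8 of those 9. B5 carried 149:31D at cut site 2 in 16 of 18 cells.

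Some fixed indels were common throughout the recorder and others rare. 219:2D occurred in 86 of the 104 clone intBCs, 111:1I in 85, 167:54D in 66 and 113:108D in 60. In contrast 113:62D of set B occurred in 2, 113:41D of set A in 3, 112:27D of set A in 5 and 99:68D of set B in 7. Over all cells, the 10 indels carried by the most group 0 cells were 167:54D (116 cells), 219:2D (96), 113:108D (95), 111:1I (92), 111:2D (74), 112:27D (72), 113:1I (69), 111:1D (35), 206:16D (27) and 113:54D (26). The last shared its count with 205:19D. Of the 116 distinct indels in group 0, 109 (94.0%, exact 95% interval 88.0 to 97.5%) were also called in at least 1 clone intBC. The 7 that were not included 5 seen in 1 cell each. The same share was not computed for any clone, so 94.0% has no background here, and its interval covers counting error only. Some of the 109 were called in few clone cells, such as 113:41D in 3.

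The share of characters that were fixed in the sets lay within the range of the clones. One indel was carried by all listing cells at 13 of 24 characters in set A (54.2%) and 14 of 24 in set B (58.3%), beside 0 to 88.9% in Clones 1 to 11 with a median of 7.41%. Taken as 1 population, group 0 had 5 of 39 (12.8%). The sets have 25 and 92 cells and the clones 137 to 8719. A clone needs 1 exception among all its cells to lose a fixed character. The sets were also sorted by these same indels, whereas the clones were grouped by intBCs. These shares are therefore set side by side without a test.

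Away from the fixed characters, set A carried many indels at most of its intBCs. S1 in set A was uncut at cut site 1 in 70 of 88 cells, and 18 (20.5%) carried 1 of 7 indels there, most often 111:14D in 6. S3 had 17 indels at cut site 2 (70.8% of 72 cells edited) and 12 at cut site 3 (51.4%), the commonest of them 167:54D at both in 8 cells and 219:2D in 10. S4 had 15 indels at cut site 2 (43.0% of 79 cells), and its uncut form there was the commonest allele, in 45 cells. A1 had 18 indels at cut site 2 (71.2% of 73 cells), led by 161:18D in 11, and 14 at cut site 3 (45.2%), led by 219:2D in 9. A1 and S3 had the most alleles, 31 and 30, and none exceeded 10 cells at A1 or 8 at S3.

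At A2, cut site 3 divided set A in a different way. Of 69 cells, 47 carried 219:2D, 15 carried 221:1D, 5 were uncut and 2 had other indels, and both frequent states lay in both plates (30 and 17 cells for 219:2D, 6 and 9 for 221:1D in plates 10 and 11). Among the other variable states of set A that 4 or more of these cells carried, 13 of 22 were met with 219:2D but not 221:1D, 3 with 221:1D but not 219:2D and 6 with both. The 3 were 166:7D at S3 (4 cells), 167:49D at S3 (4 cells) and 166:4I at A1 (4 cells), and the 13 included 161:18D at A1 (10 of 11 cells, the other uncut), 152:25D at A2 (6), 167:1I at S3 (6) and 165:11D at A1 (6). Also among the 13 were 111:14D at S1 (1 of 5 cells, the other 4 uncut) and 163:2D at S4 (3 of 6, the other 3 uncut). With 219:2D in 47 cells and 221:1D in 15, a state of few cells may miss 221:1D without being tied to 219:2D. No expected count was made. A smaller branch was marked by 111:14D at S1, although the bases around this deletion were listed in 2 forms. Compared with the other set A cells that listed S1 as well, all 5 of its cells that listed S4 carried 163:2D there, beside 3 of 70, 4 of 5 that listed A2 were uncut at its cut site 3, beside 1 of 62, and 4 of 5 that listed S3 carried 219:2D, beside 6 of 64. These branches were chosen after their values were seen.

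Set B had 4 or more alleles at B2, B4, B5, S2 and S4. B2 had 11 alleles in 22 cells, with 5 indels at cut site 2 led by 158:12D in 8 cells. B4 had 10 alleles in 19 cells and was most often 111:3D alone, in 7 of them. B5 had 9 alleles in 18 cells, of which 149:31D alone was carried by 9. S2 had 6 alleles in 9 cells, with 5 indels at cut site 2, and S4 had 4 alleles in 18. S4 was uncut at cut site 1 in 8 of those cells and carried 110:12D there in 6. B3 had just 2 alleles in 23 cells, the commoner of them, 167:54D alone, in 20, and S1 was uncut at cut site 3 in 19 of 22.

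**Figure D3:**
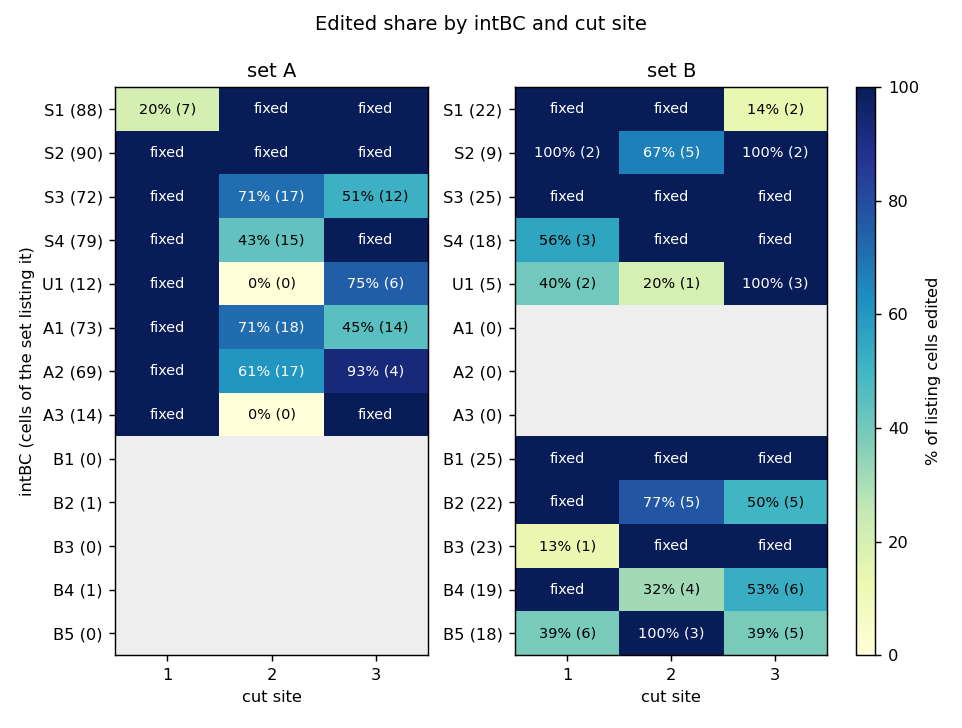
Percent of listing cells edited at each cut site (columns) of each intBC (rows, with the number of cells of the set listing it), for set A and set B. Squares marked fixed carry the same indel in all listing cells (at least 10), the others give the percent edited with the number of distinct indels in parentheses, and grey squares were listed in fewer than 5 cells; S3 is fixed at all 3 sites in set B but at cut site 1 in set A, and S2 at all 3 in set A.

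The cells of set A were distinguished almost one by one. They formed 88 distinct strings of characters among 92 cells, with an intBC that was not listed counted as a state, and the 25 cells of set B formed 25. Of the 107 variable states in set A, 60 were found in 1 cell and 47 in 2 or more, of which 20 occurred in both plates 10 and 11, 13 in plate 10 alone and 14 in plate 11 alone. The states in 1 plate included 152:25D at A2 (6 cells) and 215:14D at S3 (5 cells) in plate 10, and 166:1I at A2 (7 cells) and 220:1I at A1 (5 cells) in plate 11. In set B, 27 of 46 variable states were found in 1 cell, 11 in both plates, 8 in plate 11 alone and 0 in plate 10 alone, with 10 cells in plate 10 and 15 in plate 11.

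Set B cells had higher median UMIs and more intBCs than set A cells, with overlapping ranges. A set A cell had a median of 47 UMIs (13 to 199) and 5.5 intBCs (3 to 7), and a set B cell 116 UMIs (25 to 274) and 8 intBCs (5 to 10). At the intBCs that both sets listed, S1 had a median of 11 UMIs where listed in set A and 21 in set B, whereas S2, S3 and S4 had 9, 7 and 7 in set A and 9, 8 and 7 in set B. In set B, S3 and B1 were listed in 25 of 25 cells and B3 in 23. In set A no intBC was listed in every cell, the most complete being S2 (97.8%) and S1 (95.7%). An intBC that is not listed may be absent, silent or missed at this depth, and these cannot be told apart.

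The 4 cells outside both sets carried alleles found in neither, at every intBC they listed. They had been set apart because they matched no fixed indel, so this follows from the sorting wherever a set has a fixed indel. The comparison was free to differ at B5, and at S2 and U1 against set B. Of these cells, 3 listed S1, A2 and B1 together, a combination that no cell of set A or B had. Both cells of plate 00 and 1 of plate 01 carried 113:108D at S1 (12, 44 and 14 UMIs) and 112:11D at A2 (9, 28 and 12 UMIs), and B1 read 115:6I and 154:294D (1, 19 and 7 UMIs). The plate 00 cells also shared 167:54D at A2, whereas the plate 01 cell was uncut at cut site 2 of A2 and carried 211:7D at cut site 3, and it listed S3 at 1 UMI as well. The remaining plate 01 cell listed A1, A2, B1, B2, B5, S2 and U1 with other alleles, among them 111:2D at A2, B2 and B5. The call 154:294D at B1 occurred in these 4 cells and in 0 alleles of the clones. The 5 bases listed after it, gtcat, are those that follow 113:41D, which ends at position 154 where the call begins, and the 5 bases before it adjoin them without a gap in the amplicon sequence printed in the methods. A deletion of 294 bases from that position would also run past the end of that amplicon, so the call is given only as the table lists it. None of the 4 cell barcodes occurred in another library.

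Group 0 was unevenly spread over the plates. It had 2 cells in plate 00, 2 in plate 01, 67 in plate 10 and 50 in plate 11, which is 0.024%, 0.021%, 0.83% and 0.56% of the cells of those libraries. Plates 00 and 01 thus held 4 of 121 cells (3.31%, exact 95% interval 0.91 to 8.25%), and these were the 4 cells outside the sets. Set A lay in plates 10 (57 cells) and 11 (35), and none of its 92 cells was in plates 00 and 01. With 3 counts taken as the limit in place of an exact interval, this allows a share of up to 3.26%. Set B had 10 and 15 cells in plates 10 and 11 and none of 25 in plates 00 and 01. The same limit of 3 counts allows up to 12.0%. Clones 8 and 9 had still lower shares in plates 00 and 01, 0.16% of 1231 cells and 0 of 807, Clone 11 had a higher one, 15.3% of 137, with intervals that do not overlap that of group 0, and the other 8 clones had 32.9 to 94.1%. With 1 library per plate the difference between plates cannot be tested, and intervals and limits cover counting error only, as cells of a clone descend from each other.

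**Figure D4:**
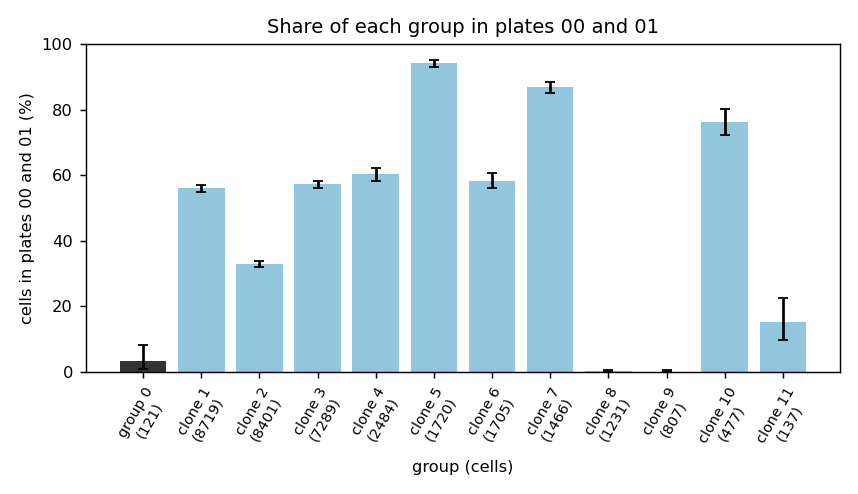
Share of the cells of group 0 and of Clones 1 to 11 (number of cells in parentheses) that were in plates 00 and 01, as bars with exact 95% binomial intervals for counting error. Group 0 (3.31%) lies above Clones 8 and 9 and below Clone 11, and the other 8 clones lie between 32.9 and 94.1%.

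Pairs of intBCs that rarely met were seen in 2 clones as well. Pairs found together at under 0.1 of the independent rate made up 12 of 78 pairs in group 0, 4 of 36 in Clone 5 and 10 of 36 in Clone 8, and 0 in the other 9 clones. For each such pair, the alleles at the other intBCs were compared between the cells that listed one and the cells that listed the other. The median share of alleles found on both sides was 0% over the 12 pairs of group 0 (0 to 39.5%), 49.3% over the 4 of Clone 5 (26.4 to 67.8%) and 20.0% over the 10 of Clone 8 (18.5 to 23.6%). These ranges overlap, but the group 0 pairs above 0% were B4 with A1 or A3 and B2 with A3. They rest on the 2 set A cells that listed B4 or B2 at 1 UMI. Clone 8 could be compared at 2 other intBCs per pair and group 0 at 3 to 5. The numbers of cells on each side differ between the groups, and the difference was not tested.

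In group 0, 79.9% of 2106 detected characters were edited, 83.8% at cut site 1, 75.8% at cut site 2 and 80.2% at cut site 3. The clones averaged 64.4% ± 32.9 (SD, n = 11) over all sites, and 61.7% ± 34.6, 73.8% ± 32.9 and 57.7% ± 33.5 at the 3 cut sites. Group 0 lay above 6 clones and below 5 in the share over all sites, and the exact two-sided permutation test of 1 group against 11 clones gave p = 0.83. This design cannot give a p below 0.0833, and no p over the 8 measures tested was below 0.5 (adjusted p, Benjamini-Hochberg, was 1 for all 8). The sets were edited to a similar extent, 80.2% in set A and 79.0% in set B, but not at the same sites: cut site 2 was edited in 71.7% of characters in set A (exact 95% interval 67.6 to 75.7%) and 86.6% in set B (80.8 to 91.1%), and cut site 3 in 83.0% (79.4 to 86.2%) and 73.1% (66.1 to 79.3%). The direction held within both libraries, with cut site 2 at 73.4% in set A and 82.4% in set B in plate 10 and at 69.1% and 89.3% in plate 11. The fixed indels of a set are the same in both libraries, so the libraries are no independent repeat of the difference. Cut site 2 was fixed at S1 and S2 in set A and at S1, S3, S4, B1 and B3 in set B. The intervals cover counting error only and treat each call as separate, although the alleles of 1 set share ancestors. For that reason no test of the difference was made.

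**Figure D5:**
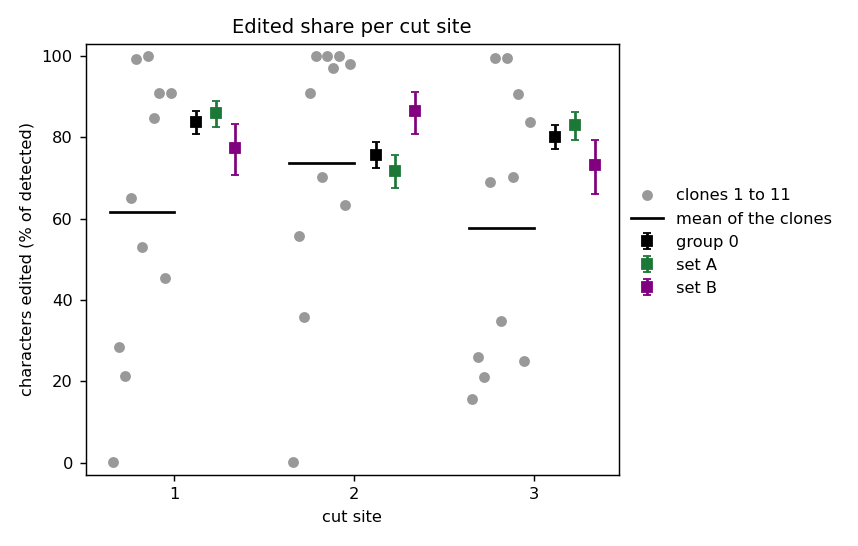
Percent of detected characters edited at each cut site, with 1 grey point per clone, the mean of the 11 clones as a line, and group 0, set A and set B as squares with exact 95% binomial intervals for counting error. At every cut site group 0 lies inside the spread of the clones, and set B is above set A at cut site 2 but below it at cut sites 1 and 3.

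By the other measures group 0 as a whole also lay within the range of the clones. Its median of 54 UMIs per cell compared with 75.1 ± 26.7 (SD, n = 11) for the clones' medians, with 9 clones above it and 2 below (exact permutation p = 0.58). Its median of 9 UMIs per allele compared with 11.1 ± 3.08 (exact permutation p = 0.75, n = 11), and its 165 reads per UMI with 155 ± 19.7 (exact permutation p = 1, n = 11). Group 0 had 95.9 distinct strings per 100 cells, beside 64.8 ± 34.4 in the clones (exact permutation p = 0.5, n = 11), and 3 clones were above it. This measure depends on the number of cells, and with each clone rarefied to the cells of group 0 the clones averaged 80.6 (exact permutation p = 0.58, n = 11). Set B alone, with 25 cells, lay above the highest clone in median UMIs per cell (116 beside 114) and reads per UMI (177 beside 176). It had 100 distinct strings per 100 cells, beside 98.7 in the highest clone. The clones were not rarefied to 25 cells, so no rank is drawn from this measure. By the kind of event, counting an indel once per allele, 54.8% of its 1257 indels were deletions at 1 cut site, 18.5% deletions over 2, 7.72% deletions over all 3 and 19.0% insertions, each within the range of the clones.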

How the data were processed

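Target site transcripts of A549 cells from 4 plates were sequenced on a droplet platform. The authors processed the reads with Cell Ranger 2.0.1, collapsed them into UMIs, aligned consensus sequences to the target site and deposited 1 allele table, in which UMI counts and read counts are whole numbers without normalization. Cells were sorted into clones by their intBCs, doublets were removed and intBCs in under 10% of the cells of a clone were dropped by the authors. The target site sequence in the methods was read for the longest deletion call alone, and the deposited trees of 2 clones were not analysed.

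Group 0 was read from the group column, and samples were mapped from the plate digits in the library titles. Cut site calls marked as no call (482 in the table, 0 in group 0) were taken as missing. Joint listing was compared with the product of the intBCs' shares. B1 to B5 are the smaller module at a Jaccard index of 0.5, and intBCs that met them at a mean of under 0.25 times the independent rate were named A. A cell joined set A or B if its calls matched more fixed indels of that side than of the other. Measures of group 0 were compared with Clones 1 to 11 by exact two-sided permutation, 1 value per group. Binomial intervals are exact (Clopper-Pearson, 95%), and the limit for a share of 0 is 3 counts. The statistics were tested on simulated data. Members, lists and cutoffs were chosen with earlier results of these data known, and the branches within set A and the 0.25 cutoff after their values were seen. Named intBCs were all 13, with their most frequent alleles, their fixed indels, the 10 most widespread indels and the cells of more than 1 module. Alternatives covered alleles under 5 UMIs, left out plates, other module rules, multi-site indels set to missing and weighting by intBC. Python 3.11.15, numpy 2.4.6, pandas 2.3.3, scipy 1.17.1 and matplotlib 3.10.9 were used.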

Additional observations from a re-analysis of the deposited data

How the results depend on the processing

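The 14 results were recomputed in 112 combinations with an alternative, of which 101 kept the direction of a tested difference or, for values without a test, moved by less than the counting interval or by at most 1.5 times for a count. The edited share at cut site 2 was above the clones' mean in the pooled cells but below it as a mean over intBCs (67.0%) and in set A alone (71.7%). The edited share over all sites fell below the clones' mean once intBCs not listed were counted as unedited (35.7%). In set B alone the medians of 116 UMIs per cell and 12 UMIs per allele were above the clones' means. Exact permutation p values of the tested measures lay between 0.25 and 1 over the 73 recomputations with a test, in a design that allows no p below 0.0833, so they say nothing about stability. The gap in distinct strings per 100 cells between group 0 and the clones was 15.2 with the clones rarefied. The number of modules was 1 at a Jaccard index of at least 0.1 and 4 at 0.5, and the share of cells with more than 1 module was 0% at 0.1, 45.5% at 0.5 and 90.9% by the authors' iterative rule. With A taken as the intBCs that met B1 to B5 at under 0.1 of the independent rate, 3 alleles were shared by the 2 sides. They were those of the plate 10 cell that listed B4 at 1 UMI.

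Leaving out each library in turn gave 20.4 to 43.7% for the share of cells with more than 1 module, the highest without plate 11, and 1.68 to 7.41% for the share of cells in plates 00 and 01. The 58 alleles left after removal of those under 5 UMIs included 0 found on both sides, and so did the alleles without plate 10 or plate 11. The comparisons of single sets, that check of shared alleles and the 0.1 cutoff were chosen after seeing the data. With indels over more than 1 cut site set to missing, cut site 2 gave no comparison, since Clone 7 had no call left there. Strings over cells that list every intBC of their module were not run, since no cell listed all 11 intBCs of the large module. No paired analysis was possible because each plate has a single library. Depth limits U1 most, at 1 or 2 UMIs per cell, and the 4 cells of plates 00 and 01, which are too few to divide.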
